A study of Mus musculus with 14 samples.

Results

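Barhl1 and 6330403K07Rik are 2 of the 52459 genes in the count table of a study of pancreatic islet cells, and were picked by name as genes with large falls that are not digestive enzyme genes. Cells of dispersed islets from inbred C57BL/6J male mice aged 7 months were sorted by flow cytometry on acidic beta-galactosidase activity, a lysosomal activity used as a marker of senescent cells. There were 7 libraries of beta-galactosidase-negative cells (hereafter negative) and 7 of beta-galactosidase-positive cells (positive), numbered 1 to 7 in both groups, and no gene had been altered and no drug given per the labels. Total counts ran from 11060144 to 23045934 reads in negative and from 15585779 to 24577025 in positive libraries. The members were chosen because their counts were lower in positive libraries, so the difference between the groups is given for them as a description without a test. The labels do not say whether the libraries came from separate animals, and every p-value rests on the spread among these libraries alone.

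Barhl1 encodes a homeobox transcription factor of the BarH-like family. It is known from the developing nervous system and the inner ear, where it supports the survival of cerebellar granule neurons and cochlear hair cells downstream of the proneural factor Atoh1, and it can repress its targets through corepressors of the Groucho (Tle) family. 6330403K07Rik is a protein-coding gene known by its clone-derived name, and no role is given for it here. Islets hold mostly beta cells, which make the insulins Ins1 and Ins2, with alpha cells (glucagon, Gcg), delta cells (somatostatin, Sst) and PP cells (Ppy). Homeobox factors such as Pdx1 and Nkx6-1 set and keep these identities.

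On GRCm38, Barhl1 lies on chromosome 2 from 28907679 to 28916668 on the minus strand, with 5 annotated transcripts. 6330403K07Rik lies on chromosome 11 from 71031941 to 71033513, also on the minus strand, with 1 transcript. No other annotated gene overlaps either of them. Both genes were picked for their fall in positive libraries, and a control that they share was not tested. The 250 bases before a RefSeq start of each gene are shown so that a reader can compare the promoters. They come from RefSeq on GRCm38.p6, are written 5′ to 3′ on the minus strand, and stand at chr2:28916669-28916918 and chr11:71033618-71033867. For 6330403K07Rik the RefSeq start lies upstream of the GENCODE start at 71033513, so its window does not adjoin the gene as placed above. Capitals mark matches to an E-box, the site CANNTG bound by basic helix-loop-helix factors such as Neurod1 and Atoh1.
Barhl1: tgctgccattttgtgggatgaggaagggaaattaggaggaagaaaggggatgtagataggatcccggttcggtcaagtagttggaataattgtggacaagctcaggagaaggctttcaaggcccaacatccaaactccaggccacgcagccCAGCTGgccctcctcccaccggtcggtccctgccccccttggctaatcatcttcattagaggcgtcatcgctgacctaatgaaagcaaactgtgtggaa
6330403K07Rik: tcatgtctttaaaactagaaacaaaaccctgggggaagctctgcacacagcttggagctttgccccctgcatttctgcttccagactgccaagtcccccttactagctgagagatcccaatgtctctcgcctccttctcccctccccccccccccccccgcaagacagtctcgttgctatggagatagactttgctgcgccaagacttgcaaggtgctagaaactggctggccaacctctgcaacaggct
Barhl1 held 1 E-box, CAGCTG, which began 99 bases before the start, and 6330403K07Rik held none. An E-box stood in 66.2% of the 32851 RefSeq promoter windows of this length. Searched on both strands, neither window held the homeobox core TAATTA (4.84% of windows), the cAMP response element TGACGTCA (1.55%), the GC box GGGCGG (32.7%) or the TATA box TATAAA (12.4%). The 6330403K07Rik window held a run of 16 C bases, and the GC contents were 52.8% for Barhl1 and 55.2% for 6330403K07Rik. A second Barhl1 start in the RefSeq table, inside the gene, also had 1 E-box in the 250 bases before it. A match is a description of letters, and its absence says nothing of a factor's binding.

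Markers of other cells moved with the sort in the same libraries. The summed level of 22 endothelial markers was 9.23 to 85.1 CPM (read counts brought to a common library size, with trimmed mean of M-values scaling) in negative and 453.9 to 1509 CPM in positive libraries, that of 24 macrophage markers 18.9 to 29.0 and 104.3 to 977.5 CPM, and none of these markers was at 0 in all libraries. The summed level of 27 acinar markers was 243.2 to 1915 CPM in negative and 72.8 to 1223 CPM in positive libraries, and all 7 pairs had less in the positive library. Of the markers tested, 21 of 21 endothelial, 20 of 20 macrophage, 5 of 11 pericyte and stellate (Rgs5, Pdgfrb, Abcc9, Notch3 and Des), 2 of 13 ductal (Anxa3 and Slc4a4) and 2 of 7 neuron markers (Rbfox3 and Prph) rose and 6 of 23 acinar markers fell, where 8.03% of all genes were called in either direction. Once the replicate number entered the fit as a block, 20 of 23 acinar markers and the neuron marker Elavl4 fell, and 3 ductal markers rose and 2 fell, where 7.77% of all genes were called lower and 11.8% higher. Negative 3 stood apart with 1464 CPM of pericyte and stellate markers against 16.2 to 73.2 CPM in the other negative libraries, and positive 6 and 7 had the most macrophage marker reads, 977.5 and 690.2 CPM. Their part in the results was not tested. Values without negative 3, or without all 4 libraries numbered 6 and 7, are given beside the genes whose call or fold change they moved.

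Barhl1 was measured in every library, with 133 to 293 reads in negative and 90 to 177 in positive libraries. Its level ran from 8.22 through a median of 12.5 to 14.3 CPM in negative libraries and from 5.18 through 7.11 to 8.29 CPM in positive libraries. The groups overlapped by a single library on each side, since negative 3, the lowest of its group, was just below positive 2, the highest of the other. The means were 11.96 ± 2.27 and 6.87 ± 1.10 CPM (SD, n = 7 per group), a log2 fold change of −0.80 ± 0.14 (SE) or 0.575 times the negative level, with a 95% interval of 0.470 to 0.703. Since the gene was picked for its fall, the interval is a description. In pairs of libraries with the same number the log2 difference ran from −0.50 in pair 3 to −1.10 in pair 6, so that the positive library was lower in all 7. In edgeR's quasi-likelihood test 1.63% of the 16350 genes tested were called lower at a Benjamini-Hochberg adjusted p below 0.05, and 6.92% were lower in all 7 pairs. In bulk RNA, fewer cells that express a gene and less RNA per cell cannot be told apart.

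6330403K07Rik had 177 to 263 reads in negative and 119 to 195 in positive libraries. It ran from 10.01 through a median of 12.5 to 16.7 CPM in negative libraries and from 4.92 through 7.94 to 9.13 CPM in positive libraries. The groups did not overlap, which held for 0.355% of the genes tested in this direction. The means were 13.4 ± 2.81 and 7.71 ± 1.46 CPM (SD, n = 7 per group), a log2 fold change of −0.79 ± 0.15 (SE) or 0.579 times the negative level (95% interval 0.463 to 0.723). Pairs differed more from each other than for Barhl1. The log2 difference was −0.23 in pair 1 and −1.28 in pair 3, with an SD over pairs of 0.336 against 0.205 for Barhl1. Positive 3 was the lowest positive library for 6330403K07Rik, and positive 7 for Barhl1.

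**Figure D1:**
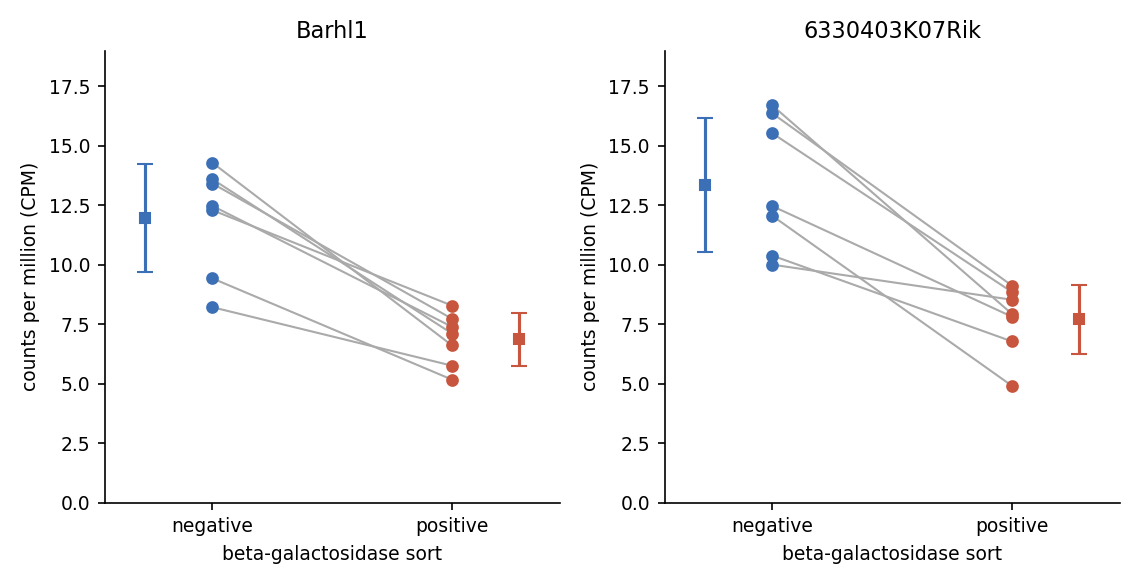
CPM of Barhl1 (left) and 6330403K07Rik (right) in the 7 negative (blue) and 7 positive (red) libraries, with grey lines joining libraries of the same number and squares with bars for the mean and SD. Every line falls from left to right, and negative means of 11.96 and 13.4 CPM stand beside positive means of 6.87 and 7.71 CPM.

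The genes called lower with an average log2 CPM of at least 3 whose fold changes were the next larger and the next smaller in size were Rgs16, a regulator of G protein signalling, at −1.04 ± 0.14, and Nap1l5, an imprinted gene of the nucleosome assembly family, at −0.73 ± 0.11 (log2, SE). This place restates how the 2 genes were picked, and their errors do not set one before the other. The coefficient of variation of Barhl1 was 19% in negative and 16% in positive libraries, where its read numbers alone give 6.98% and 8.67%. For 6330403K07Rik it was 21.0% and 18.9% against 6.71% and 8.22%. The biological coefficient of variation fitted by edgeR was 0.187 for Barhl1 and 0.205 for 6330403K07Rik, against medians of 0.165 and 0.159 over the 1908 and 1983 genes within 0.5 log2 CPM of each.

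Per length, 6330403K07Rik (1.49 kb of exons) was the more abundant of the pair, at 8.94 ± 1.88 CPM per kb in negative and 5.16 ± 0.976 in positive libraries. Barhl1 (3.91 kb of exons) was at 3.06 ± 0.582 and 1.76 ± 0.282 CPM per kb (SD, n = 7 per group). In an order of 44 genes, made of homeobox genes that passed the filter on low counts and 6330403K07Rik, Barhl1 was 28th by its mean over all libraries. Above it stood Cux1 (2.71 CPM per kb), Meis1 (2.83), a partner of Hox and Pdx1 proteins, and Irx2 (3.53), known from alpha cells. Below it stood the chromatin organiser Satb1 (2.38), Tgif1 (2.31), a repressor of TGF-beta signalling, and Six4 (2.07). In negative libraries the ranges of these factors met that of Barhl1 except for Tgif1, which lay lower, and in positive libraries except for Meis1 and Cux1, which lay higher. Its place among the others is thus not set beyond the spread. The beta cell factors Nkx6-1 (78.5 CPM per kb) and Pdx1 (20.9) lay above the range of Barhl1 in every library.

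**Figure D2:**
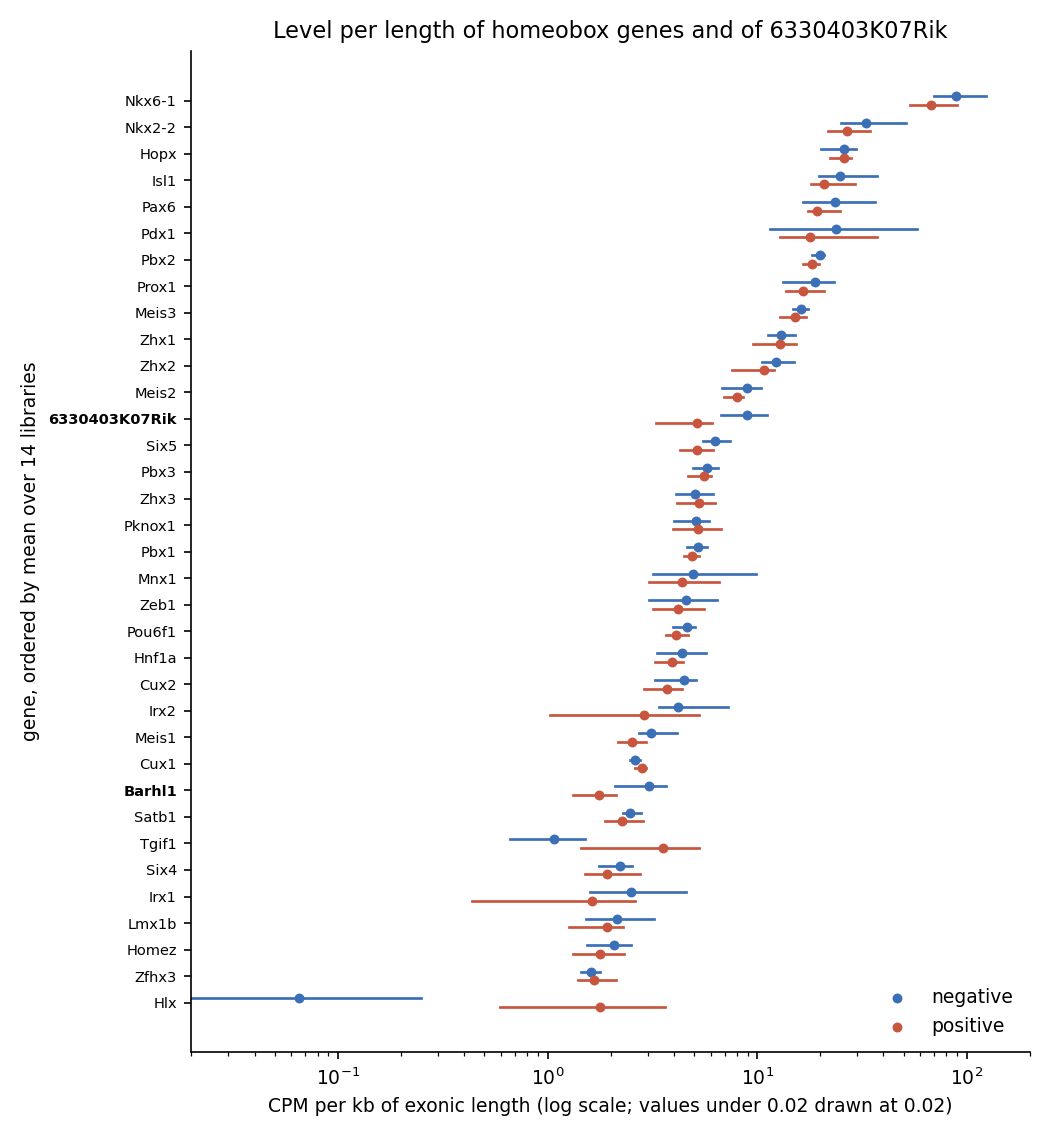
CPM per kb of exonic length (log scale) of homeobox genes of the order and of 6330403K07Rik, with points for group means and lines from the lowest to the highest of 7 libraries, negative in blue and positive in red. Barhl1 stands at 3.06 and 1.76 CPM per kb, far below Nkx6-1 at 89.2 and 67.7.

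Barhl2, the paralog of Barhl1, was hardly detected. It had 1 read over the 7 negative and 1 over the 7 positive libraries. How reads that match both genes were counted is not given in the sources used here. Of 23 other BarH and related homeobox genes, Barhl2 among them, 5 had no read and only Hlx passed the filter. Hlx, a factor of mesenchyme and blood cells, rose from 0.149 ± 0.256 to 4.04 ± 2.43 CPM (log2 change 4.52 ± 0.71, SE, with an edgeR adjusted p of 0.000735). All 21 of its negative reads were in negative 6 and 7, and the other 5 negative libraries were at 0, so that the size of this change rests on those 2 libraries. It was 5.39 without negative 7, and without the libraries numbered 6 and 7 the call held (adjusted p = 0.000326) but a fold against a group at 0 has no set size.

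Of 41 islet homeobox factors tested, 4 rose, none fell and 37 were not called, with a median log2 fold change of −0.16 against 0.000 over all 16350 genes (6.40% of which were called higher). Hhex, which maintains delta cells and is also expressed in endothelium, rose by 2.50 ± 0.45, the repressor Zeb2 by 3.32 ± 0.73, Tgif1 by 1.72 ± 0.27 and Tgif2 by 1.21 ± 0.29 (log2, SE, with edgeR adjusted p of 0.00202, 0.0114, 0.000695 and 0.0156). Zeb2 rose by 4.25 without negative 3, its highest negative library, and its call was lost without the 4 libraries numbered 6 and 7 (2.64, adjusted p = 0.172). Meis1 was not called (−0.30 ± 0.10, edgeR adjusted p = 0.0794), but was called lower without negative 3 (0.0393) and with the block (0.00318). With the replicate number as a block, 4 rose and 12 fell, against 11.8% and 7.77% of all genes. The 12 fell by 0.13 (Pbx2) to 0.44 (Onecut2) on the log2 scale, with Nkx6-1 at −0.39 and Pdx1 at −0.34. These 4 genes were named after their values were seen. In the same blocked fit Barhl1 had −0.79 ± 0.08 and 6330403K07Rik −0.79 ± 0.11 (SE).

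Genes tied to Barhl1 in other tissues were tested as a further list. Of 13 tested, 2 fell and 11 were not called, with a median log2 fold change of −0.20, where 1.63% of all genes were called lower and 6.40% higher. Tle2, a Groucho corepressor, fell from 34.2 ± 3.85 to 26.3 ± 3.41 CPM (SD, n = 7 per group), a log2 change of −0.38 ± 0.09 (SE, edgeR adjusted p = 0.0158). Its call was lost without the libraries numbered 6 and 7 (adjusted p = 0.254). Neurod1, an E-box factor of beta cells, was lower in the same way, at 164.2 ± 21.3 against 217.1 ± 36.6 CPM (−0.40 ± 0.11, adjusted p = 0.0303). Leaving out any 1 of negative 2, 4 and 5 and positive 2, 6 and 7 ended that call (0.0538 to 0.0624), as did leaving out all libraries numbered 6 and 7 (0.139). With the block Tle1 also fell and Ctnnb1 and Bdnf rose, where 7.77% of all genes were called lower and 11.8% higher.

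The neighbours of both genes on the chromosome were measured as well. Each member ends toward a gene read in the other direction. Ddx31, an RNA helicase gene 2.11 kb from the end of Barhl1, had 26 ± 5.14 and 21.7 ± 3.37 CPM (SD, n = 7 per group), with −0.26 ± 0.13 on the log2 scale (SE, edgeR adjusted p = 0.248; 0.0542 with the block). Mis12, a kinetochore gene 4.57 kb from the end of 6330403K07Rik, was at 35.2 ± 2.95 and 35.7 ± 3.43 CPM (0.02 ± 0.07, adjusted p = 0.908). On the other side Cfap77, 10.3 kb away from Barhl1, was at 0.622 ± 0.290 and 0.611 ± 0.191 CPM (−0.06 ± 0.30, adjusted p = 0.934). Nlrp1a, 58.7 kb from 6330403K07Rik, had 2 reads over the negative and 17 over the positive libraries and was not tested.

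Of the islet hormones only Sst was called between the groups. Hormone fold changes were not tested against those of the 2 genes. Ins1 averaged 37424 ± 4697 CPM in negative against 31390 ± 3855 CPM in positive libraries (SD, n = 7 per group), or −0.25 ± 0.10 on the log2 scale (SE, edgeR adjusted p = 0.165; 0.0447 with the block and 0.0295 without negative 3). Ins2 was at 81943 ± 10675 and 70526 ± 7949 CPM (−0.22 ± 0.11, adjusted p = 0.261), and reads of these close paralogs may have been split between them. Iapp, amylin of the beta cell granule, had −0.13 ± 0.11 (adjusted p = 0.531). Gcg ran from 9871 to 26898 CPM in negative and from 3197 to 26163 CPM in positive libraries (−0.53 ± 0.42, adjusted p = 0.516; −1.13 and 0.296 without the libraries numbered 6 and 7), with positive 3 the lowest and negative 1 the highest.

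Sst rose. It ran from 61.4 through a median of 125.8 to 384.5 CPM in negative and from 279.9 through 986.0 to 2022 CPM in positive libraries, and all 7 pairs had more of it in the positive library (2.58 ± 0.51 on the log2 scale, SE, edgeR adjusted p = 0.00563). The groups overlapped through positive 3, the lowest positive library. The counts of markers called stand beside 1.63% of all genes called lower and 6.40% higher, or 7.77% and 11.8% with the block. Of 10 delta cell markers tested, Sst and Hhex rose and 8 were not called, with a median of 0.44. With the block Pdyn, the prodynorphin gene, rose too and the calcium-sensing receptor gene Casr fell. Of 13 alpha cell markers, the arginine transporter gene Slc7a2 fell (−0.46 ± 0.13, adjusted p = 0.0407; 0.0588 to 0.0869 when any 1 of negative 1, 2 and 4 and positive 1, 2, 3, 6 and 7 was left out) and 12 were not called (median −0.46), while Gpr119 fell too with the block. Of 5 PP cell markers Id4 rose (1.3 ± 0.38, adjusted p = 0.0487, 0.511 without the libraries numbered 6 and 7), and the hormones Ppy (0.33 ± 0.34, adjusted p = 0.633) and Pyy (0.25 ± 0.35, adjusted p = 0.734) were not called. Id4 also lost its call without any single library but negative 3 and positive 1, 3 and 5 (0.0525 to 0.12), with insulin reads left out of the library size (0.051) and with no filter on low counts (0.101). Of 17 beta cell markers 2 fell and 15 were not called (median −0.25). These 2 were the ion channel gene Trpm5 (−0.48, edgeR adjusted p = 0.00615) and the incretin receptor gene Gipr (−0.52, adjusted p = 0.0421). Their values with libraries left out are not given here. With the block 8 of the 17 fell.

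**Figure D3:**
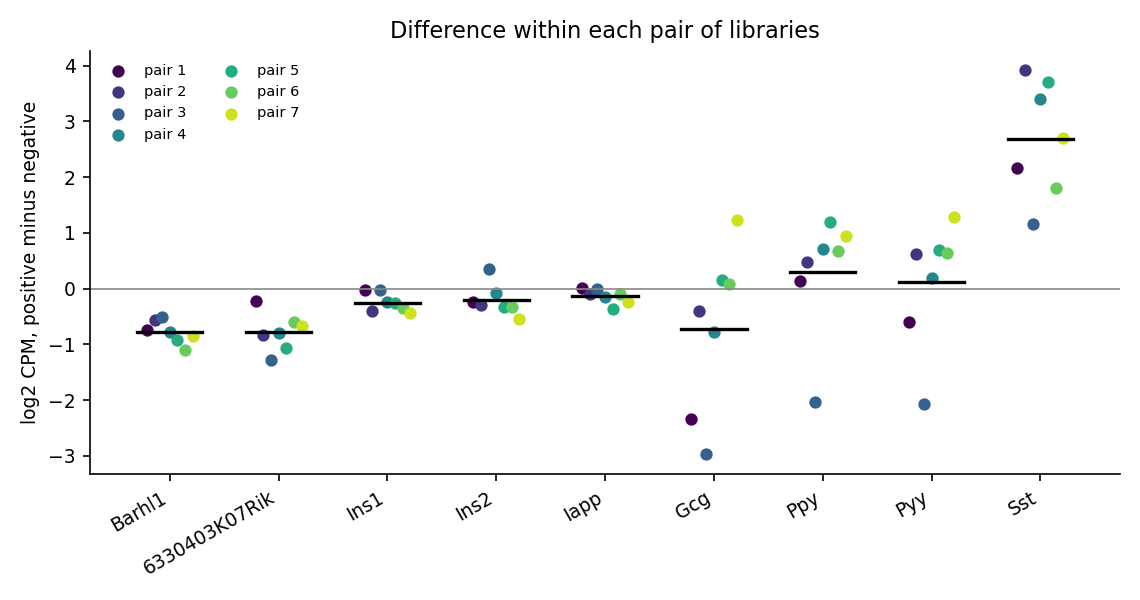
Difference in log2 CPM, positive minus negative, within each of the 7 pairs of same-numbered libraries, with a bar for the mean. Barhl1 and 6330403K07Rik lie below 0 in all 7 pairs and Sst above 0 in all 7, while Gcg spreads from −2.97 to 1.22.

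Set against insulin in the same library, both genes were lower in the positive library of every pair. Both were picked for their fall, and Ins1 and Ins2 were at 0.839 and 0.861 times their negative levels. The ratio thus largely repeats that choice and is a description. The share of all genes lower in every pair on this scale was not computed. Barhl1 had 10.03 ± 1.55 reads (SD) per 100000 reads of Ins1 and Ins2 in the 7 negative libraries, and 6.73 ± 0.795 (SD) in the 7 positive libraries. For 6330403K07Rik the values were 11.3 ± 2.52 and 7.598 ± 1.42. The positive mean was 0.671 times the negative mean for Barhl1 and 0.672 times for 6330403K07Rik. On this scale negative 7, at 7.54, lay below positive 2 and 5, of which the higher had 7.61, for Barhl1, and negative 1 and 6 lay among the positive libraries for 6330403K07Rik. The reads of Barhl1 per read of 6330403K07Rik averaged 0.927 ± 0.271 in negative and 0.907 ± 0.152 in positive libraries, and were lower in the positive library of 3 of 7 pairs.

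To ask which islet hormones the 2 genes followed, levels were related across libraries within each group, since over all 14 libraries the sort itself would set the relation. In all, 30 relations were computed: each gene with 4 hormones and 3 summed marker lists in each group, and the 2 genes with each other. By exact two-sided permutation over all orders of the libraries none passed after Benjamini-Hochberg adjustment, whether by Pearson's r or Spearman's rho. For r, 1 of 30 had an unadjusted permutation p below 0.05. For rho the unadjusted permutation p values below 0.05 were 0.0123, 0.0341, 0.048 and 0.048. With 7 libraries a strong relation can be missed.

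No relation of Barhl1 to either insulin passed the test. In negative libraries its r with Ins1 was 0.660 (n = 7, exact permutation p = 0.11, adjusted p = 0.536; rho 0.107, p = 0.84, adjusted p = 1). That value rested on negative 3, which was lowest for Barhl1 and for both insulins, and r was −0.034 without negative 2 and 3, the 2 libraries farthest from the median. In positive libraries r with Ins1 was 0.690 (exact permutation p = 0.0845, adjusted p = 0.536; rho 0.821, p = 0.0341, adjusted p = 0.36), and 0.857 without the 2 farthest. With Ins2, r was 0.598 in negative (exact permutation p = 0.155, adjusted p = 0.536; rho 0.000, p = 1; r −0.273 without the 2 farthest) and 0.502 in positive libraries (p = 0.249, adjusted p = 0.623; rho 0.536, p = 0.236; 0.225 without the 2 farthest). All levels of a library share 1 total, of which Ins2 took 6.03% to 9.14% and Ins1 2.78% to 4.28%.

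Over all 7 libraries of a group, r of Barhl1 was smaller in size with Gcg and Sst than with either insulin. In negative libraries rho was largest in size with Gcg, at −0.357 against 0.107 with Ins1 and 0.000 with Ins2. Differences between these relations were not tested. With Gcg, r was −0.319 in negative (exact permutation p = 0.448, adjusted p = 0.79; rho −0.357, p = 0.444; r 0.044 without the 2 farthest) and −0.069 in positive libraries (p = 0.879, adjusted p = 0.957; rho −0.071, p = 0.906; 0.079 without the 2 farthest). With Sst, r was −0.163 in negative (exact permutation p = 0.712, adjusted p = 0.957; rho −0.071, p = 0.906; r −0.376 without the 2 farthest) and 0.046 in positive libraries (p = 0.924, adjusted p = 0.957; rho −0.071, p = 0.906; 0.041 without the 2 farthest). The sign of each of these 4 values turned when some single library was left out.

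Among negative libraries 6330403K07Rik tended to be low where Sst was high. Its r with Sst there was −0.845 (n = 7, exact permutation p = 0.031, adjusted p = 0.536; rho −0.786, p = 0.048, adjusted p = 0.36), −0.921 without negative 6 and 7, the 2 farthest, and −0.902 to −0.791 when each library was left out. In positive libraries r was 0.654 (exact permutation p = 0.123, adjusted p = 0.536; rho 0.214, p = 0.662). That value rested on positive 3, the lowest library for both, and was −0.224 without positive 3 and 7 and −0.285 without positive 3 alone. The difference between the groups was not tested.

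With Gcg, r of 6330403K07Rik was −0.328 in negative (exact permutation p = 0.436, adjusted p = 0.79; rho −0.679, p = 0.11; r 0.203 without the 2 farthest) and 0.513 in positive libraries (p = 0.249, adjusted p = 0.623; rho 0.214, p = 0.662; −0.219 without the 2 farthest). With Ins1 it was 0.276 in negative (exact permutation p = 0.614, adjusted p = 0.957; rho 0.214, p = 0.662; r −0.264 without the 2 farthest) and 0.576 in positive libraries (p = 0.177, adjusted p = 0.536; rho 0.714, p = 0.0881; 0.864 without the 2 farthest). With Ins2 it was 0.129 in negative (exact permutation p = 0.85, adjusted p = 0.957; rho 0.000, p = 1; r 0.629 without the 2 farthest) and −0.047 in positive libraries (p = 0.925, adjusted p = 0.957; rho 0.286, p = 0.556; 0.128 without the 2 farthest). Thus neither insulin gave 6330403K07Rik a relation that passed the test.

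**Figure D4:**
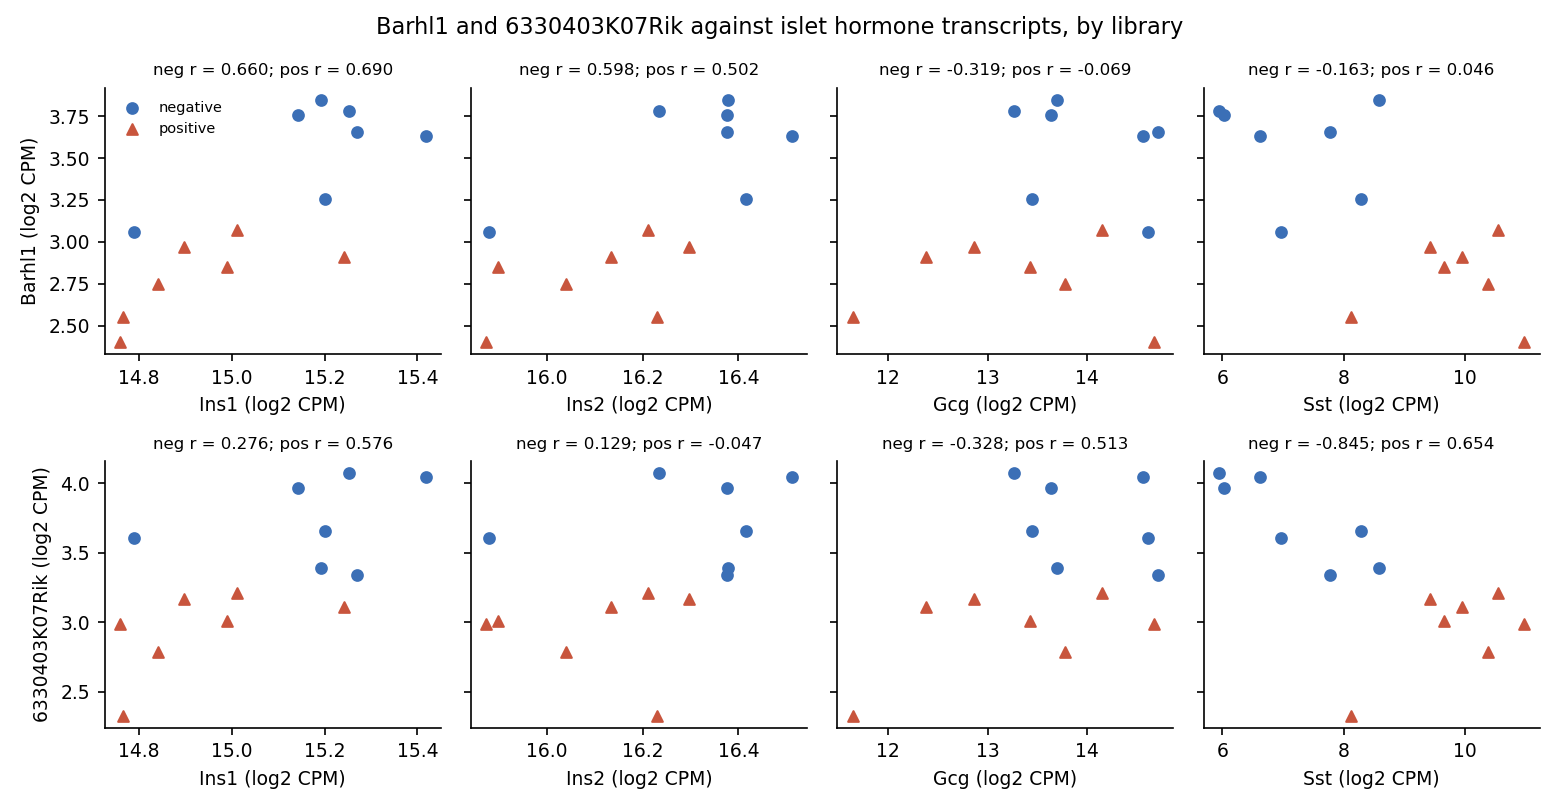
Log2 CPM of Barhl1 (top row) and 6330403K07Rik (bottom row) against log2 CPM of Ins1, Ins2, Gcg and Sst in negative (blue circles) and positive (red triangles) libraries, with Pearson's r per group above each panel. The r of largest size, −0.845, is that of 6330403K07Rik with Sst in negative libraries, and no relation passed adjustment over 30.

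Between the 2 genes r was 0.177 in negative (n = 7, exact permutation p = 0.684, adjusted p = 0.957; rho 0.071, p = 0.906; r −0.096 without the 2 farthest) and 0.630 in positive libraries (p = 0.121, adjusted p = 0.536; rho 0.893, p = 0.0123, adjusted p = 0.36; 0.829 without the 2 farthest). Without positive 7, where Barhl1 was lowest and 6330403K07Rik near its median, r rose to 0.971 over the other 6 libraries (exact permutation p = 0.00139, adjusted p = 0.0417). This was the only relation that passed with 1 library left out, and it was singled out after the values were seen. It is thus a description, and the relation over all 7 positive libraries did not pass. With the summed acinar markers r was positive for both genes in both groups, at 0.429 and 0.581 for Barhl1 and 0.147 and 0.602 for 6330403K07Rik (exact permutation p = 0.344, 0.179, 0.743 and 0.147, adjusted p of 0.536 to 0.957; rho 0.429, 0.607, 0.143 and 0.714; r 0.281, 0.755, 0.400 and 0.789 without the 2 farthest).

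With the summed endothelial markers, r of 6330403K07Rik was −0.624 in negative (n = 7, exact permutation p = 0.163, adjusted p = 0.536; rho −0.786, p = 0.048, adjusted p = 0.36; r −0.880 without the 2 farthest) and 0.218 in positive libraries (p = 0.715, adjusted p = 0.957; rho −0.036; 0.564 without the 2 farthest). For Barhl1 it was −0.102 and −0.196 (exact permutation p = 0.912 and 0.654, adjusted p = 0.957 for both; rho −0.071 and −0.143; r −0.427 and 0.718 without the 2 farthest). With the summed macrophage markers r of Barhl1 was −0.139 and −0.452 (exact permutation p = 0.829 and 0.292, adjusted p of 0.957 and 0.632; rho −0.179 and −0.071; r −0.307 and 0.968 without the 2 farthest). Positive 6 and 7, with the most macrophage reads, thus set the sign in positive libraries. In negative libraries r of 6330403K07Rik with macrophage markers was −0.460 (exact permutation p = 0.295, adjusted p = 0.632; rho −0.357; r −0.153 without the 2 farthest). In positive libraries it was −0.000 (exact permutation p = 1, adjusted p = 1; rho 0.071), and 0.989 without positive 6 and 7.

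The genes whose levels were most like each member within groups were found among 10533 others with an average log2 CPM of at least 3, by r over 14 libraries after each group's mean was removed. For Barhl1 the 5 highest included Cmip, a signalling adaptor (0.872), Phka1, a subunit of phosphorylase kinase (0.829), Casz1, a zinc finger transcription factor (0.829), and the processed pseudogene Gm9001 (0.827), whose reads may belong to its parent gene. Of the 5 only Gm9001 fell between the groups (−0.38 ± 0.11, SE, adjusted p = 0.0355 in edgeR; 0.0549 to 0.0666 when any 1 of negative 1, 4 and 5 and positive 3, 6 and 7 was left out). Gm9001 also lost its call without the libraries numbered 6 and 7 (edgeR adjusted p = 0.186). Cmip had −0.14 ± 0.08 and Casz1 −0.23 ± 0.11 (adjusted p = 0.325 and 0.236). Phka1 and Casz1 were called lower without negative 3 (adjusted p = 0.0424 and 0.0312). With the replicate block Phka1 and Casz1 were called lower too (adjusted p = 0.0446 and 0.0264). Ins1 was 234th in this order (0.672), Iapp 292nd (0.653), Ins2 667th (0.560), 6330403K07Rik 1769th (0.376), Sst 5616th (−0.077) and Gcg 6526th (−0.163).

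For 6330403K07Rik the 5 were Noct, a circadian phosphatase (0.892), Mapre1, which tracks microtubule ends (0.880), Zufsp, a ubiquitin protease (0.865), the kinase Dyrk1b (0.851) and Frmd4b (0.847). None of them was called between the groups, with log2 fold changes from −0.27 for Dyrk1b to 0.06 for Mapre1, though Dyrk1b was with the replicate block (adjusted p = 0.0281). Ins1 was 1105th (0.415), Barhl1 1386th (0.376), Gcg 3102nd (0.196), Ins2 4776th (0.050) and Sst 7219th (−0.144). The lists of 5 shared no gene. They describe these libraries, since the genes were picked as the highest of so many, and with the replicate number also removed none of either 5 stayed among the 5 most like.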

How the data were processed

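RNA of sorted islet cells was sequenced in 14 libraries. Per the labels' protocols polyadenylated RNA was selected and a directional kit was used. The submitters' processing notes name Subread, featureCounts and the build GRCm38. The deposited values are raw counts per gene, and tool versions, annotation, strand setting and the rule for multi-mapped reads are not given in the sources used here. Columns were matched to samples by the names in the titles. No 2 replicates agreed within sampling noise (lowest chi-square per degree of freedom 5.36).

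edgeR 4.0.16 (R 4.3.3) was used with filterByExpr (16350 genes kept), TMM scaling, robust dispersions and the quasi-likelihood F-test on group, with Benjamini-Hochberg adjustment. Its steps were tested on simulated data (16139 genes tested, positive against negative), which recovered 99.0% of 2-fold and 50.0% of 1.5-fold changes, with 5.1% of calls unchanged genes. The simulation gave all genes the same biological coefficient of variation and no effect of replicate number. Its changed genes were all well counted, so these rates need not hold for the real libraries. CPM used TMM-scaled sizes, and log2 CPM a prior count of 2. Relations used exact permutation (scipy 1.17.1). For summed markers 0.1 CPM was added before the logarithm.

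Same-numbered libraries deviated from their group means together (correlations across genes 0.203 to 0.541 in all 7 pairs, median −0.125 for other numbers). With group means removed, positive values for equal numbers by themselves push those for other numbers below 0. Pairs in the text are libraries of the same number, though no label says what the numbers mark. The main edgeR test was on group alone and did not use them, and the block was an alternative fit.

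The members, the 14 gene and marker lists and the tests were chosen with earlier results of these data known. Named genes are the members, the islet hormones, Barhl2, genome neighbours, the 5 most like genes, neighbours in the order of falls and in level per length, and genes called in the homeobox, partner, alpha, delta and PP lists. Lengths and positions come from GENCODE M21 (91.5% of symbols matched 1 gene). Both members matched the RefSeq promoter table. Some genes that the rule names are not reported here. Protein sequences were not used here.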

Additional observations from a re-analysis of the deposited data

Results flagged for a closer look

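Of 76 groups of 7 libraries examined, for the named genes with at least 20 reads in the group, 6 held a library far from the others, and about 5% would be flagged by chance. Negative 3 accounted for 4 of them. It had 76.4 CPM of Cmip, the gene most like Barhl1, against 94.9 to 108.2 CPM in the other negative libraries, and 26.2 CPM of Tle2 against 32.9 to 37.8 CPM. It was high in Zeb2, at 5.28 CPM against 0.0673 to 1.85 CPM, and in Irx2, at 23.9 CPM against 11.2 to 13.1 CPM. Negative 3 was also the lowest negative library for Barhl1, Ins1 and Ins2, and its pericyte and stellate markers summed to 1464 CPM. Negative 2 had 43.5 CPM of Meis1 against 28.7 to 34.8 CPM in the others. Positive 4 had 1.02 CPM of Cfap77 against 0.445 to 0.627 CPM in the others, from 20 reads.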

How the results depend on the processing

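The log2 fold changes of Barhl1 and 6330403K07Rik kept their direction under all 20 alternative fits, from −0.89 to −0.72 and from −0.86 to −0.71, and without the libraries numbered 6 and 7 were −0.72 and −0.84. The number of genes called, 1313 (1047 higher, 266 lower), was 2064 (1597 and 467) with DESeq2 1.42.0, 3200 (1930 and 1270) with the replicate number as a block and 581 (536 and 45) without the 4 libraries numbered 6 and 7. With 1 library left out it ran from 965 to 1883 (825 to 1267 higher, 140 to 616 lower), lowest without positive 6 and highest without negative 3. The cause was not tested. Among 36 other named genes, 655 of 714 values kept direction and call, 37 lost the call and 15 gained it. Mis12 was −0.022 to 0.066 with 1 library left out and −0.0039 without numbers 6 and 7, and Pyy −0.0069 to 0.41 and −0.15.

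No relation passed under RLE scaling or with insulin reads left out of the library size, and 0 to 1 passed with 1 library left out. Of the 5 genes most like Barhl1, 0 stayed with the replicate block and 3 with insulin reads left out, and of those most like 6330403K07Rik 0 stayed with the block. With 1 library left out the r of Barhl1 ran, in negative libraries, from −0.059 to 0.773 with Ins1, −0.384 to 0.818 with Ins2, −0.615 to 0.033 with Gcg, −0.552 to 0.066 with Sst, −0.54 to 0.255 with endothelial and −0.515 to 0.243 with macrophage markers. In positive libraries it ran from −0.555 to 0.621 with Gcg, −0.601 to 0.713 with Sst and −0.483 to 0.27 with endothelial markers. For 6330403K07Rik it ran from −0.086 to 0.253 with Ins2 and −0.16 to 0.6 with acinar markers in negative libraries. In positive libraries it ran from −0.282 to 0.673 with Gcg, −0.272 to 0.614 with Ins2, −0.285 to 0.778 with Sst, −0.434 to 0.416 with endothelial and −0.823 to 0.243 with macrophage markers.

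Without the 2 libraries farthest from the median, signs turned in negative libraries for Barhl1 with Ins1 (−0.034), Ins2 (−0.273), Gcg (0.044) and 6330403K07Rik (−0.096), and for 6330403K07Rik with Gcg (0.203) and Ins1 (−0.264). In positive libraries they turned for Barhl1 with Gcg (0.079), endothelial (0.718) and macrophage markers (0.968), and for 6330403K07Rik with Gcg (−0.219), Ins2 (0.128), Sst (−0.224) and macrophage markers (0.989). The members' 90 to 293 reads per library set their counting error.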
